A study of Mus musculus with 2 samples.

Results

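The genes followed here were the 9 members of the vascular endothelial growth factor (VEGF) system, 5 ligands (Vegfa, Vegfb, Vegfc, Figf and Pgf) and 4 receptors (Flt1, Kdr, Flt4 and Nrp1), out of 27999 genes counted. They were taken by name from both count matrices, and no member served to place a cell in a class. The matrices came from single-cell RNA sequencing of dissociated mouse lung, 1 animal per library. The low burden library came from a lung at week 1 and the high burden library from a lung at week 3, counted from the injection of 500000 tumor cells by the tail vein. The cells were of the Met-1 line, a mouse mammary carcinoma line from an MMTV-PyMT tumor. Both animals were female FVB/NJ mice, 10 weeks old when injected, so both had received tumor cells and neither library is an uninjected control. With 1 animal per group there is no replicate error. Week, tumor burden, sequencing depth and animal cannot be told apart, and every interval below covers counting error only.

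VEGF ligands are secreted dimers that bind receptor tyrosine kinases, chiefly on endothelial cells. VEGF-A, the product of Vegfa, signals through VEGFR2 (Kdr) and binds VEGFR1 (Flt1), which also receives VEGF-B (Vegfb) and placental growth factor (Pgf). VEGF-C (Vegfc) and VEGF-D (Figf, named Vegfd in current annotation) are ligands of VEGFR3 (Flt4), the receptor of lymphatic endothelium, and neuropilin 1 (Nrp1) is a coreceptor for VEGF-A and for class III semaphorins. In the lung, type I alveolar epithelial (AT1) cells are a known source of Vegfa beside a dense capillary bed.

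On GRCm38, the annotation placed Vegfa at chr17:46016993-46032369, Vegfb at chr19:6982473-6987651 and Pgf at chr12:85166635-85177790, all on the minus strand. Vegfc lay on the plus strand at chr8:54077606-54187096 and Figf at chrX:164373378-164402650. Flt1 (chr5:147561604-147726011) and Kdr (chr5:75932827-75978458) lay on the minus strand of the same chromosome, while Flt4 (chr11:49609263-49652739) and Nrp1 (chr8:128358604-128503363) were on plus strands. Only Nrp1 overlapped another annotated gene, Mir1903. Counts of this kind are made near the end of the transcript, so isoforms such as soluble Flt1 were not separated.

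The 250 bases before the RefSeq start sites (GRCm38.p6, minus strand) of Flt1 and Kdr are shown because the ratio of these receptors' counts differed between classes. Capitals mark the 8-letter cyclic AMP response element TGACGTCA and the ETS core GGAAG, both searched on either strand, so that CTTCC is the core read backwards.
Flt1, chr5:147726012-147726261: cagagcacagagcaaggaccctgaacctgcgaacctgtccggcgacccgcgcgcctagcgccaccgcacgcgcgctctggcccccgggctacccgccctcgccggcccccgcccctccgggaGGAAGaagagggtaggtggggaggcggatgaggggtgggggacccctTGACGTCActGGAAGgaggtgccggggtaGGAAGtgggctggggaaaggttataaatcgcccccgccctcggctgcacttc
Kdr, chr5:75978456-75978705: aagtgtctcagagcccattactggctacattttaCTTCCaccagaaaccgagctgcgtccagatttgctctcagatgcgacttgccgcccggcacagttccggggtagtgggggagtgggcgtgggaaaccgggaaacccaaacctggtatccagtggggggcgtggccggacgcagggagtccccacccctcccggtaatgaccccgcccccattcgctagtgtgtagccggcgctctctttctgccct
The Flt1 window held the full cyclic AMP response element once, at base -81 from the start site, and the ETS core at -128, -71 and -52, while the Kdr window held 1 ETS core, at -216, and no cyclic AMP response element. Of 32851 promoter windows of this length, 1.55% held TGACGTCA and 64.1% held GGAAG. The matches do not overlap, and a match is a description of letters, not of binding.

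The low burden library held 2668 cells with a median of 3971 unique molecular identifiers (UMIs, one per captured transcript molecule) and the high burden library 3121 cells with a median of 13795. The study's own limits of 1000 to 7000 genes and at most 10% mitochondrial counts left 2473 and 3033 cells, and 11 barcodes occurred in both libraries. Each kept cell was given to the class whose markers it held in the highest share, and 11.3% of low burden and 7.88% of high burden cells passed no gate. Cells passing more than 1 gate made up 11.7% and 25.1%. Main classes counted 45 and 14 AT1-like, 426 and 72 fibroblast-like, 571 and 237 endothelial-like, and 60 and 791 macrophage-like cells, low burden first, with 1280 metastatic-like cells at high burden and 0 at low burden, which allows a share of up to 0.121% of 2473 cells. In each library every gate marker of AT1, fibroblast, endothelial and macrophage cells was more than 2 times higher in its class than in the other cells, as were 11 of 12 metastatic markers at high burden. The exception was PYMT, the tumor transgene, at 66.0 CPM in metastatic-like cells and 62.2 CPM in the rest, with a UMI in 61.1% of all kept high burden cells, so its presence does not mark the class. Cells were placed by these same markers, so higher marker levels in a class follow from its gate and do not test it. Of the high burden endothelial-like cells, 58.6% also passed another gate. Levels are given as counts per 1000000 (CPM) of the summed UMIs of a class with a 95% Poisson interval. Low burden lymphocyte-like cells (99 cells, median 3561 UMIs) and high burden ones (41 cells, median 7439 UMIs) showed how much of a transcript appeared in cells not known for it.

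**Figure D1:**
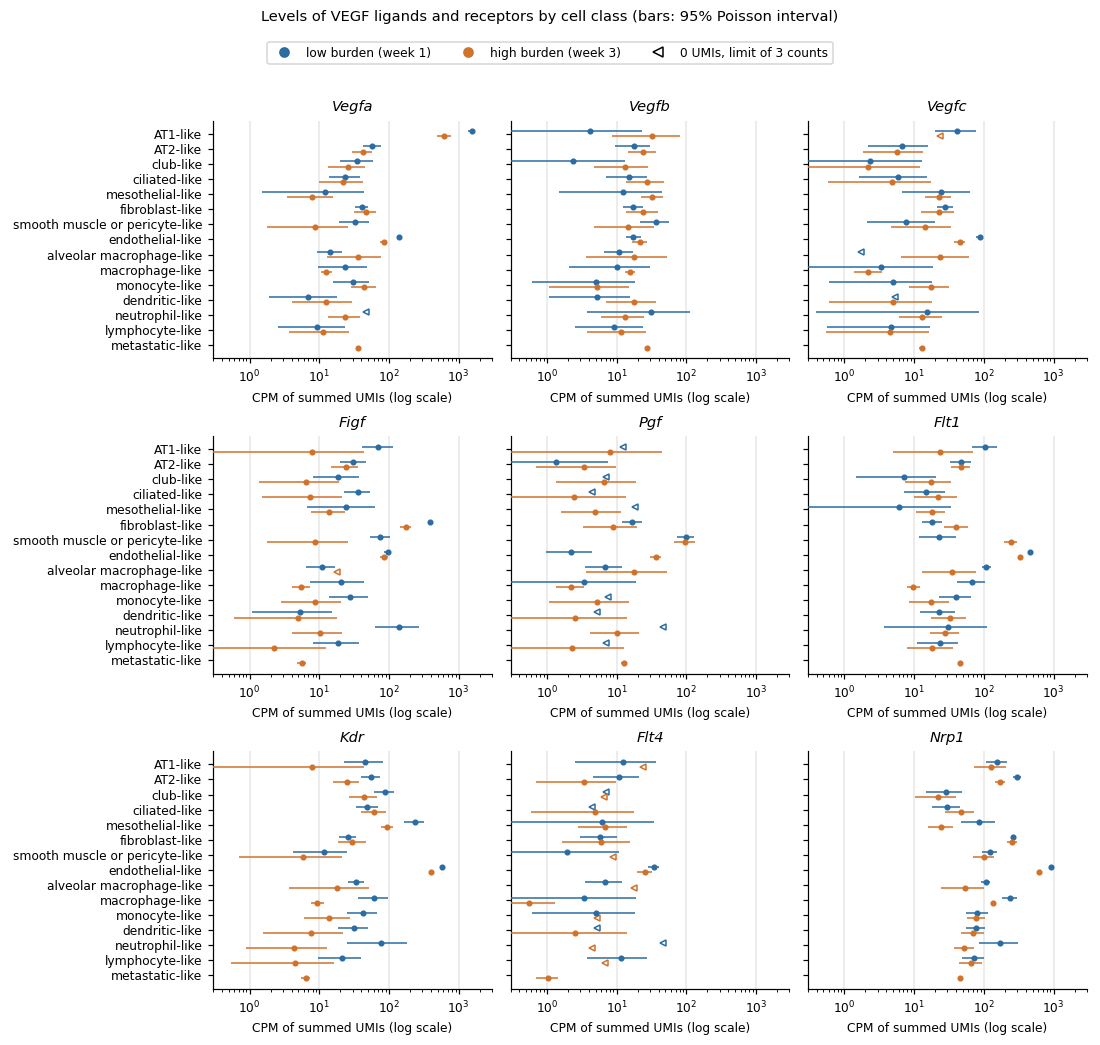
Level of each member (CPM of summed UMIs, log scale) in 15 classes of the low burden (blue) and high burden (orange) library, with 95% Poisson intervals and open triangles at the limit of 3 counts where no UMI was counted. Vegfa stood highest in AT1-like cells, Figf in fibroblast-like cells, and Flt1, Kdr and Nrp1 in endothelial-like cells.

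Vegfa, the main angiogenic ligand, was highest in AT1-like cells in both libraries. It reached 1526 CPM (1374 to 1690, 368 UMIs) at low burden, where 97.8% of the 45 cells held a UMI, and 612 CPM (483 to 765, 77 UMIs) at high burden, where all 14 cells did. After thinning each cell to 3000 UMIs these shares were 91.7% and 83.8%, with 13 low burden cells too shallow to be used. Single AT1-like cells held a median of 8 Vegfa UMIs, from 0 to 25, at low burden and 4.5, from 1 to 14, at high burden. These raw counts overlapped, but the high burden cells were sequenced more deeply (median 7229 against 3937 UMIs). Scaled to depth, the median AT1-like cell held 1581 CPM at low burden and 602 CPM at high burden. The ranges between quartiles, 973 to 2610 and 396 to 902 CPM, lay apart. The full ranges, 0 to 4571 and 85.4 to 2582 CPM, overlapped. The ratio of high over low burden was -1.32 on the log2 scale (-1.69 to -0.96). Summed AT1 markers were also lower at high burden, 34190.8 against 50277 CPM with 15 of 15 markers seen in each library. In the same cells AT2 markers went from 3492 CPM at low burden to 12607.9 CPM at high burden (12 of 12 seen in each) and metastatic markers from 58.1 CPM (2 of 12 seen) to 978 CPM (11 of 12 seen). The part of these markers in the Vegfa difference was not tested. In the 32 and 7 AT1-like cells that passed no other gate, Vegfa was 1834 and 922 CPM, a log2 ratio of -0.99, just inside the 2-fold line.

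Endothelial-like cells came next for Vegfa, with 140 CPM (128 to 153) at low burden and 83.6 CPM (73.4 to 94.9) at high burden. Being far more numerous, they held 44.8% of the low burden library's 1133 Vegfa UMIs, and the AT1-like cells held 32.5%. Within the endothelial-like class at low burden, arterial-like cells had 226 CPM of Vegfa and general capillary-like cells 172 CPM, against 90.7 CPM in aerocyte-like cells, the Car4 capillary cells of the alveolus. At high burden 63.1% of 1741 Vegfa UMIs lay in metastatic-like cells, at a level of 36.1 CPM. In fibroblast-like cells Vegfa was 40.4 and 46.4 CPM, with overlapping intervals, and in macrophage-like cells 23.7 and 12.6 CPM, close to the 9.27 and 11.4 CPM of lymphocyte-like cells.

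Vegfb, a VEGFR1 ligand best known from heart and muscle, was low throughout. Its highest level at low burden was 36.5 CPM (22 to 57, 19 UMIs) in smooth muscle or pericyte-like cells, and at high burden 32.6 CPM (22.4 to 45.7) in mesothelial-like cells, neither of which stood apart from the class next in order. Metastatic-like cells had 27.3 CPM of Vegfb and, being many, 68.3% of its 1215 high burden UMIs. In the endothelial-like class Vegfb was 17.4 and 21.4 CPM, a log2 ratio of 0.30 (-0.23 to 0.83).

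At low burden Vegfc, a lymphangiogenic ligand, was found chiefly in endothelial-like cells, which held 76.4% of its 416 UMIs. At high burden they held 20.6% of 635 UMIs, and the many metastatic-like cells, at 12.9 CPM, held 61.7%. The level in endothelial-like cells was 87.9 CPM (78.5 to 98.1) at low burden and 45.3 CPM (37.9 to 53.7) at high burden. This was a log2 ratio of -0.96 (-1.26 to -0.66) that stopped short of 2-fold. Without the cell of each library with the most Vegfc UMIs the ratio was -1.01, past 2-fold. Venous-like cells were the richest in Vegfc in each library, 282 CPM in 50 cells and 184 CPM in 13 cells. This was 3.18-fold and 3.15-fold above general capillary-like cells (88.8 and 58.2 CPM), so that venous-like cells led in both animals while the level differed. Vegfc was at 0 UMIs in 487 alveolar macrophage-like cells at low burden, which allows up to 1.72 CPM.

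Figf had its highest level in fibroblast-like cells in both libraries, and these held 55.0% of its 1470 low burden UMIs. At high burden they held 17.9% of 655 UMIs, against 37.6% in endothelial-like and 26.0% in metastatic-like cells. In fibroblast-like cells Figf was 389 CPM (363 to 417, 808 UMIs) at low burden, with a UMI in 64.8% of cells. At high burden it was 175 CPM (145 to 210, 117 UMIs), with a UMI in 61.1%. At 3000 UMIs per cell the shares were 51.7% and 39.3%, beside 3.69% and 0.998% in lymphocyte-like cells. The log2 ratio was -1.15 (-1.44 to -0.87). The summed fibroblast markers were lower as well, 16872 against 33670.4 CPM with 17 of 17 markers seen in each library, and what this contributes was not tested. Leaving out cells that passed more than 1 gate, Figf was 385 and 235 CPM and the log2 ratio -0.71 (-1.08 to -0.36).

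Among fibroblast-like cells Figf followed position along the Tcf21 and Pi16 split, a division by markers of alveolar and adventitial fibroblasts that was added after the data had been seen. The 182 low burden cells on the Tcf21 side held 630 CPM of Figf (577 to 686) and the 180 on the Pi16 side 215 CPM (186 to 247). At high burden the corresponding values were 336 CPM (270 to 413) in 38 cells and 85.1 CPM (42.5 to 152) in 17 cells. Tcf21 side cells were thus 2.93-fold and 3.94-fold richer in Figf, and both sides were lower in the high burden library. Pi16 side cells made up 42.3% of the class at low burden and 23.6% at high burden. Nrp1 did not separate the sides as far, with 312 against 200 CPM at low burden.

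Endothelial-like cells also carried Figf, 95.9 CPM at low burden and 85.0 CPM at high burden, a log2 ratio of -0.17 (-0.42 to 0.07). The ratio depended on how cells were chosen and weighted: it was 0.36 with cells thinned before gating and 0.84 as a mean of per-cell CPM. In the cells passing the endothelial gate alone, 480 at low and 98 at high burden, Figf was 68.2 CPM (58.6 to 78.9) and 18.5 CPM (11.3 to 28.6), a log2 ratio of -1.88 (-2.63 to -1.21). Of the 237 high burden endothelial-like cells, 78 also passed the fibroblast gate.

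Among the 15 classes, Pgf, a ligand that binds VEGFR1 and not VEGFR2, was highest in smooth muscle or pericyte-like cells. It stood at 97.9 CPM (72.9 to 129) in 99 cells and 96.0 CPM (66.1 to 135) in 22 cells. The intervals overlapped there, with a log2 ratio of -0.03 (-0.71 to 0.63). Lymphatic-like cells, gated apart from the classes and described below, held more at low burden, 194 CPM (136 to 267) in 28 cells. In endothelial-like cells the values of the 2 libraries lay apart. Low burden cells held 8 Pgf UMIs in all, 2.21 CPM (0.955 to 4.36), and high burden cells 105, or 36.3 CPM (29.7 to 43.9), a log2 ratio of 4.04 (3.01 to 5.29), or 2.90 as a mean of per-cell CPM. The UMIs sat in 1.23% of 571 cells and 9.28% of 237 cells, below the 10% of cells asked of a called gene, so Pgf was not among the called members. Without cells that passed more than 1 gate, Pgf stood at 1.14 and 60.1 CPM, the log2 ratio was 5.72 (4.11 to 8.04), and 11.2% of the 98 high burden cells held a UMI. Lymphocyte-like cells had 0 and 1 Pgf UMIs. Metastatic-like cells had 12.6 CPM and, being many, 64.4% of the 595 high burden Pgf UMIs.

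The high burden Pgf signal was concentrated in a small number of endothelial-like cells. Of 105 UMIs, 47 came from 3 cells and 20 from 1 cell. The 22 cells with a Pgf UMI comprised 8 aerocyte-like, 2 general capillary-like and 7 without a subtype, the rest being of other subtypes. In aerocyte-like cells Pgf was 58.2 CPM (43.0 to 76.9) at high burden (73 cells) and 1.62 CPM at low burden (186 cells). The 49 high burden UMIs lay in 8 of the 73 cells, and 1 cell held 40.8% of them. In the 41 high burden cells without a subtype Pgf was 48.1 CPM (34.0 to 66.0), an overlapping interval.

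Those 22 cells were set beside the remaining 215 after the values had been seen, as a description. Esm1, an endothelial tip cell gene, was 509 CPM in the cells with Pgf and 41.6 CPM in the others. Angpt2, an antagonist ligand of the Tie2 receptor, was 302 and 25.4 CPM, and Apln, an endothelial peptide ligand, 593 and 77.3 CPM. Mmp14, a membrane metalloproteinase, Cxcr4, a chemokine receptor, and Nrarp, a Notch pathway feedback gene, were also higher, at 158 against 35.3, 92.3 against 22.9, and 117 against 49.0 CPM. Of 12 endothelial response genes past the filter, 5 were higher by 2-fold or more with an interval clear of 0 and 1, Hey1, lower, where 2.94% of 6697 genes were higher and 8.54% lower. The cells were split by a transcript of their own, so nothing is read from this beyond the values. Apln and Hey1 also served as subtype markers and were not independent of the subtypes. Apln marks the aerocyte-like gate, and Car4, another marker of that gate, went the other way. Car4 was 259 CPM in the cells with Pgf and 547 CPM in the others, a log2 ratio of -1.08 (-1.36 to -0.82). Kdr (396 and 409 CPM) and the pan-endothelial genes Cdh5 (661 and 702 CPM) and Pecam1 (460 and 584 CPM) were within 2-fold. Of the other members, Flt4 was higher in the cells with Pgf (47.2 against 20.8 CPM, log2 ratio 1.18, 0.40 to 1.92). The 2 high burden lymphatic-like cells, described below, were among the 22 and held 8 of the 23 Flt4 UMIs. Their part in the Flt4 difference was not tested. Vegfa, Vegfb, Vegfc and Figf were lower in the cells with Pgf, at log2 ratios from -1.09 to -1.84. The cells with Pgf were deeper, with a median of 17677.5 against 9067 UMIs, 11 of the 22 passed more than 1 gate and 4 of them the metastatic gate. What depth and mixed cells contribute was not tested.

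**Figure D2:**
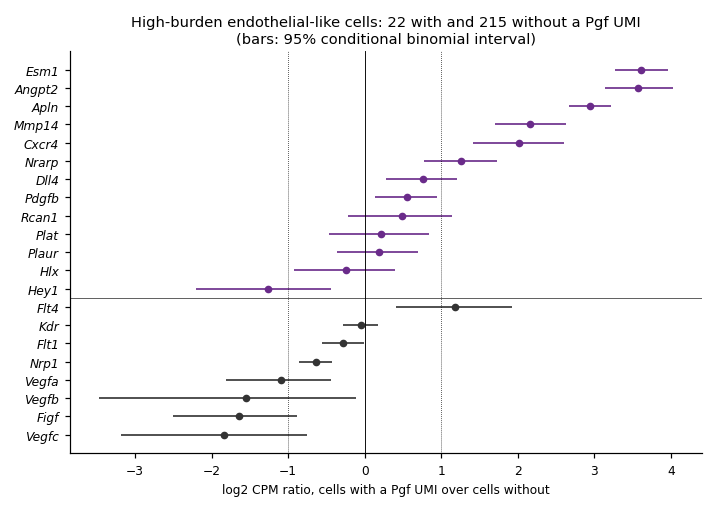
Log2 ratio of CPM between the 22 high burden endothelial-like cells with a Pgf UMI and the 215 without, with 95% conditional binomial intervals, for endothelial response genes and Apln (purple) and for the other members (black). Esm1, Angpt2 and Apln lie furthest to the right at 3.61, 3.57 and 2.94, and Kdr lies at -0.05.

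Flt1, the high-affinity VEGF-A receptor also known as a decoy, was highest in endothelial-like cells, with 452 CPM (431 to 475) at low burden and 329 CPM (308 to 350) at high burden. A UMI was found in 77.8% and 89.0% of these cells, or 68.4% and 60.1% at 3000 UMIs per cell. The log2 ratio of -0.46 (-0.58 to -0.34) was within 2-fold. Endothelial-like cells held 80% of the 2045 Flt1 UMIs at low burden. At high burden they held 34.6% of 2747, and the many metastatic-like cells held 50.2%. Outside endothelium the libraries differed most in smooth muscle or pericyte-like cells, where Flt1 was 23.0 CPM (11.9 to 40.2, 12 UMIs in 6 of 99 cells) at low burden and 244 CPM (195 to 303, 84 UMIs in 13 of 22 cells) at high burden. The log2 ratio was 3.41 (2.53 to 4.42), and without cells passing more than 1 gate it was 3.91 (2.82 to 5.20). Kdr in the same cells had 6 and 2 UMIs, and the summed endothelial markers were 1190 CPM with 18 of 18 markers at low burden and 547 CPM with 17 of 18 at high burden. What endothelial transcripts contribute to the Flt1 difference was not tested. The cell with the most Flt1 UMIs held 25% of the 84. The ratio of Flt1 to Kdr UMIs at high burden was 42 (11.3 to 352), the highest of the 7 classes for which it was taken.

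The markers of the smooth muscle or pericyte-like class also differed between libraries. Summed, they came to 35338.8 CPM at week 1 and 11209.5 CPM at week 3, with 14 of 14 seen in each, and 13 of the 14 were lower at high burden. Among them were Myh11, the smooth muscle myosin heavy chain (1841 and 285 CPM, low burden first), Acta2, smooth muscle actin (18090.7 and 6174 CPM), and the pericyte genes Notch3 (276 and 134 CPM), Cox4i2 (630 and 215 CPM) and Cspg4 (121 and 75.6 CPM). Higd1b was the exception, at 284 and 308 CPM. Metastatic markers in the class summed to 15.4 CPM with 4 of 12 seen at low burden and 1042 CPM with 12 of 12 seen at high burden. The gate does not separate smooth muscle cells from pericytes, and the part of these markers in the Flt1 difference was not tested. In this class 12% of 2592 genes were higher by 2-fold or more with an interval clear of 0 and 18.4% lower, and of 3 members past the low count filter Flt1 was higher and none lower.

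Alveolar macrophage-like cells ranked second for Flt1 at low burden, with an interval that overlapped that of AT1-like cells (104 CPM, 25 UMIs). The alveolar macrophage-like cells held 108 CPM (93.5 to 125) with a UMI in 29.6% of 487 cells. At 3000 UMIs per cell the share was 25%, against 6.49% in lymphocyte-like cells of similar depth (median 3561 and 3197 UMIs). Kdr in the same cells was 33.8 CPM with a UMI in 8.01%, near the 8.08% of lymphocyte-like cells. The ratio of Flt1 to Kdr UMIs was 3.20 (2.38 to 4.37) in alveolar macrophage-like cells and 0.779 (0.730 to 0.831) in endothelial-like cells of the same library. At high burden 14 cells passed this gate, with 6 Flt1 UMIs, and their metastatic markers summed to 3845 CPM, close to the 4073 CPM of metastatic-like cells.

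In macrophage-like cells Flt1 was 67.7 CPM (41.3 to 105) from 20 UMIs at low burden and 9.75 CPM (7.82 to 12) at high burden, a log2 ratio of -2.80 (-3.51 to -2.02). Kdr went the same way, with 60.9 CPM from 18 UMIs and 9.42 CPM, a log2 ratio of -2.69 (-3.44 to -1.87). The low burden class had 60 cells, and 1 of them held 10 of the 20 Flt1 UMIs and 1 of them 9 of the 18 Kdr UMIs. Without the cell of each library with the most UMIs of the gene the log2 ratios were -1.93 for Flt1 and -1.84 for Kdr. Leaving out the cells that passed more than 1 gate gave 29.0 and 7.93 CPM for Flt1 and 33.8 and 9.55 CPM for Kdr, log2 ratios of -1.87 and -1.82. Low burden lymphocyte-like cells had 23.2 CPM of Flt1 and 20.9 CPM of Kdr, and high burden ones 18.2 and 4.55 CPM. Summed endothelial markers moved with these values, from 1776 CPM at week 1 to 427 CPM at week 3 with 18 of 18 seen in each. Their part was not tested. Flt1 in fibroblast-like cells was 18.3 and 40.4 CPM, a log2 ratio of 1.14 (0.37 to 1.89), but cells passing only the fibroblast gate gave 14.9 and 15.9 CPM, a log2 ratio of 0.09.

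Kdr, the main signalling receptor for VEGF-A, was 581 CPM (556 to 606) in endothelial-like cells at low burden and 407 CPM (384 to 431) at high burden, a log2 ratio of -0.51 (-0.62 to -0.41). The second class in both libraries was mesothelial-like, with 233 CPM (165 to 320, 38 UMIs) in 24 cells and 94.8 CPM (76.8 to 116, 96 UMIs) in 51 cells. At high burden this interval overlapped that of the next class, ciliated-like, at 61.0 CPM (25 UMIs). A Kdr UMI was found in 66.7% and 58.8% of mesothelial-like cells, while Flt1 had 1 and 18 UMIs there. The ratio of Flt1 to Kdr UMIs was 0.0263 and 0.188 in mesothelial-like cells, and at high burden its interval (0.107 to 0.312) lay below that of endothelial-like cells (0.740 to 0.880).

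**Figure D3:**
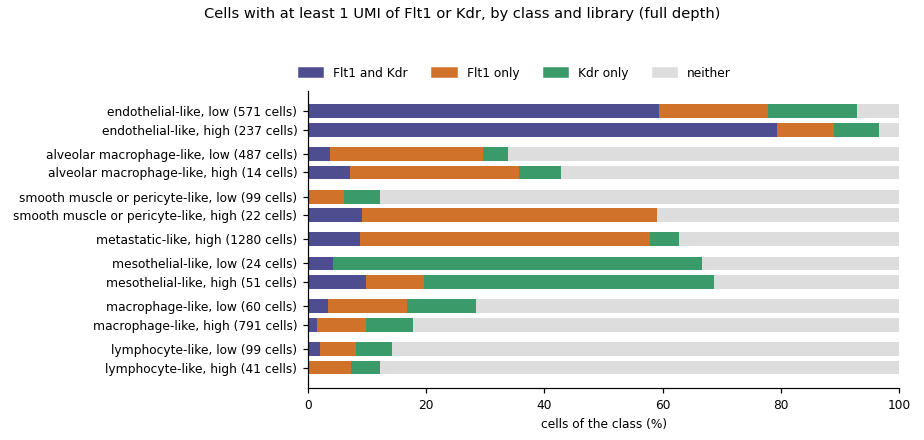
Share of cells (%) with at least 1 UMI of both Flt1 and Kdr, of 1 of them or of neither, by class and library at full depth. Both receptors were seen in 59.4% and 79.3% of endothelial-like cells, while Flt1 alone prevailed in metastatic-like cells (49.1%) and Kdr alone in mesothelial-like cells (62.5% and 49.0%).

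Flt4 and Nrp1 completed the receptors. Nrp1 was 933 CPM (901 to 965) in low burden and 626 CPM (598 to 656) in high burden endothelial-like cells, a log2 ratio of -0.57 (-0.66 to -0.49), with a UMI in 90.5% and 96.6% of cells. It was also present in AT2-like cells (297 and 169 CPM), fibroblast-like cells (264 and 254 CPM) and macrophage-like cells (237 and 136 CPM), all above the 71.9 and 65.9 CPM of lymphocyte-like cells. The fibroblast-like values were level, with a log2 ratio of -0.06 (-0.31 to 0.20). Flt4 was 34.3 CPM (28.5 to 40.9) and 25.2 CPM (19.8 to 31.7) in endothelial-like cells.

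In the endothelial-like class 5.43% of 8634 genes were higher at high burden by 2-fold or more with an interval clear of 0, and 3.1% were lower. Of 8 members past the filter none reached 2-fold in either direction, although Vegfa, Vegfc, Flt1, Kdr, Flt4 and Nrp1 all had intervals below 0, at log2 ratios between -0.96 and -0.44. The median of all genes was -0.09. Summed endothelial markers were 11390.6 CPM at high against 20958 CPM at low burden, with 18 of 18 seen in each, and their part in these ratios was not tested.

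Within the endothelium, Kdr and Nrp1 were highest in aerocyte-like cells. Kdr was 920 CPM (868 to 975) in 186 aerocyte-like cells and 411 CPM (378 to 447) in 239 general capillary-like cells at low burden, a 2.24-fold difference. At high burden the values were 632 CPM (579 to 688) and 479 CPM (432 to 529), a 1.32-fold difference. Between libraries the aerocyte-like intervals of Kdr lay apart and the general capillary-like ones overlapped. Nrp1 showed the same order, 1.88-fold higher in aerocyte-like cells at low burden (1365 against 726 CPM) and 1.16-fold at high burden (900 against 777 CPM). Flt1 did not separate these capillary types by 2-fold, with 414 against 484 CPM at low burden and 401 against 415 CPM at high burden.

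Lymphatic-like cells, searched for over all kept cells after the data had been seen, numbered 28 at low burden and 2 at high burden. Only 3 of the 28 fell in the endothelial-like class and 22 in no class. Prox1, the lymphatic transcription factor, was 361 CPM, with a UMI in 19 of the 28 cells. It is itself a marker of this gate, so its level follows from the gate and does not test it. Flt4 was 717 CPM (602 to 847) with a UMI in 89.3% of the 28 cells, and these cells held 137 of the library's 295 Flt4 UMIs. Kdr was 591 CPM (487 to 711) and Pgf 194 CPM (136 to 267, a UMI in 50% of cells), while Flt1 was 15.7 CPM from 3 UMIs, Nrp1 47.1 CPM, and Vegfc at 0 UMIs. The 2 high burden cells held 8 Flt4, 6 Kdr and 5 Pgf UMIs. The 28 low burden cells thus paired Flt4 with Kdr and lacked the Flt1 and Nrp1 levels of the blood endothelial-like cells.

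**Figure D4:**
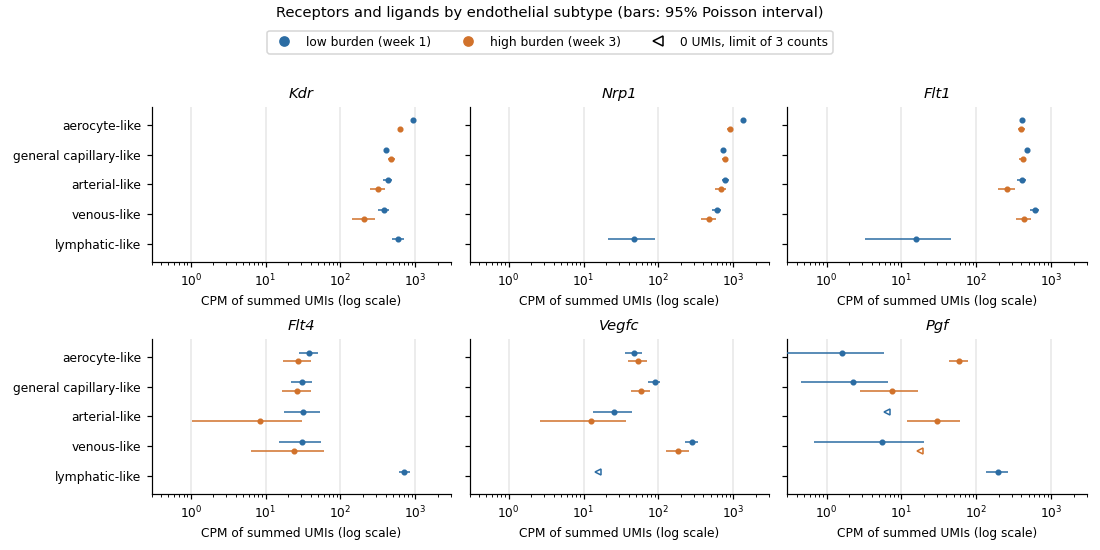
Level (CPM of summed UMIs, log scale, 95% Poisson intervals) of 4 receptors and 2 ligands in endothelial-like subtypes of the low burden (blue) and high burden (orange) library. Lymphatic-like cells are from a gate over all kept cells and shown for low burden only, with Flt4 at 717 CPM. Pgf in aerocyte-like cells lies at 58.2 CPM for high burden (49 UMIs in 8 of 73 cells) and 1.62 CPM for low burden.

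The metastatic-like cells were compared with all other high burden cells, from which they differ in depth (median 21955.5 UMIs). Among 9887 genes 7.4% were higher by 2-fold or more with an interval clear of 0 and 12.6% were lower. Of 8 members past the filter none was higher and 3 were lower, Figf (5.59 against 23 CPM, log2 ratio -2.04), Kdr (6.38 against 71.2 CPM, -3.48) and Nrp1 (45.6 against 178 CPM, -1.96). The ligands Vegfa (0.25), Vegfb (0.58), Vegfc (0.16) and Pgf (0.32) were near the level of the other cells, all 4 below 2-fold. Flt1 was 45.3 CPM (43.0 to 47.8) with a log2 ratio of -0.52, and its ratio to Kdr UMIs was 7.11 (6.11 to 8.30) against 0.807 in endothelial-like and 1.04 in macrophage-like cells of the same library. A Flt1 UMI was found in 57.9% of metastatic-like cells, or 13.1% at 3000 UMIs per cell, against 7.32% and 1.92% of lymphocyte-like cells. For Vegfa these shares were 49.5% and 10.7%, against 9.76% and 3.26%. The study identified tumor cells by a PyMT and CyclinD1 signature, taken here as a UMI of both PYMT and Ccnd1. Since PYMT was found in most high burden cells, this rule was broader and gave 1691 cells. Of these, 970 were in the metastatic-like class. By this rule the log2 ratio was -1.19 for Figf, but -0.88 for Kdr and -0.82 for Nrp1, which were within 2-fold. Vegfa stood at -0.23 (-0.37 to -0.08).

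In AT1-like cells 8.76% of 1199 genes were higher and 12.2% lower by the same rule, and of the 2 members past the filter Vegfa was lower and Nrp1 within 2-fold. In fibroblast-like cells, where 4.78% of 6024 genes were higher and 8.27% lower, Figf was lower and Flt1 higher among 7 members. In macrophage-like cells, with 8.36% of 7419 genes higher and 10.5% lower, Flt1 and Kdr were lower among 5 members. Of the 9 members, those below the filter in a class were not called there.

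**Figure D5:**
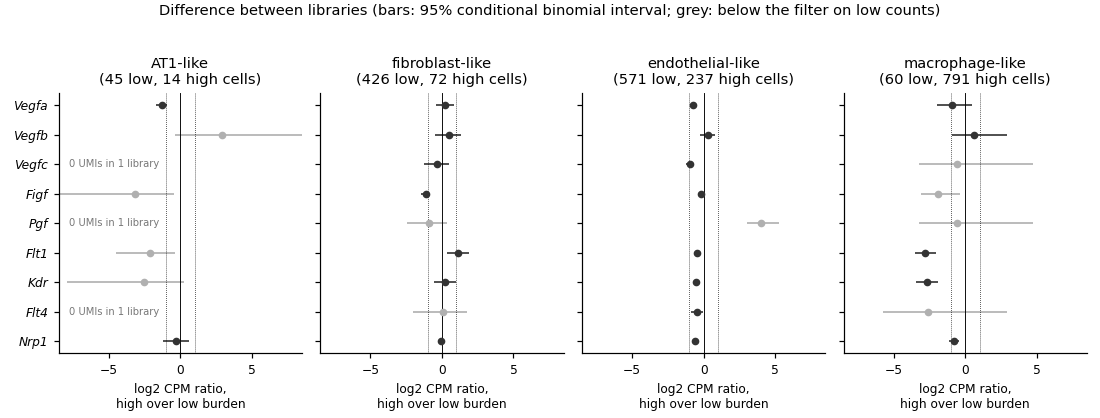
Log2 ratio of CPM, high over low burden, of each member in 4 classes, with 95% conditional binomial intervals, grey where the member was below the low count filter and dotted lines at 2-fold. Vegfa in AT1-like cells lies at -1.32, Figf in fibroblast-like cells at -1.15 and Pgf in endothelial-like cells, below the filter, at 4.04.

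Summed over all kept cells, 6 of 8 members past the filter were lower at high burden and none higher, where 12.6% of 9205 genes were higher and 15.2% lower. Figf had a log2 ratio of -3.12, Kdr -2.56, Nrp1 -1.86, Flt1 -1.53, Vegfc -1.34 and Vegfa -1.33, while Pgf (0.05) was level and Vegfb (0.66) within 2-fold. In such a sum, fewer cells of a class and less transcript per cell cannot be told apart. Endothelial-like cells were 23.1% of low burden and 7.81% of high burden cells, and fibroblast-like cells 17.2% and 2.37%. With the metastatic-like cells left out, Figf had a log2 ratio of -2.26, Vegfa -1.48, Kdr -1.45, Flt1 -1.24 and Nrp1 -1.03. Vegfb, the other member past the filter, stood at 0.29, and the median of 8177 genes was -0.13.

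Genes around the pathway were taken in 5 lists. In endothelial-like cells, where the background was 5.43% higher and 3.1% lower, 5 of 14 hypoxia genes past the filter were higher and none lower. These were Adm (1.82), a vasodilator peptide, Slc2a1 (1.54), the glucose transporter GLUT1, Ankrd37 (1.49), and the glycolytic enzymes Pgk1 (1.48) and Ldha (1.33), all as log2 ratios, with a list median of 0.34 against -0.09 for all genes. Of 12 endothelial response genes, Esm1 (16.0 and 120 CPM, 2.91), Mmp14 (11.6 and 56.0 CPM, 2.27) and Angpt2 (1.77) were higher and Plaur (-1.02) lower. Of the 348 high burden Esm1 UMIs, 248 were in the 22 cells with a Pgf UMI. Of 10 co-receptors and modulators, Thbs1 (1.16) and Nrp2 (1.01) were higher and Sema3c (1080 and 464 CPM, -1.22) and Ptprj (-1.05) lower. Of 10 other angiogenic genes Tek, the Tie2 receptor and itself a gate marker, was lower (366 and 163 CPM, -1.17), and 0 of 19 intracellular signalling genes passed in either direction. No test stands behind these counts.

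In fibroblast-like cells, Ldha (log2 ratio 1.34) and Pdgfa (1.24), a growth factor ligand, had the highest ratios of list genes and Sema3d (-2.57) and Tek (-2.56) the lowest, each of the latter with 6 UMIs at high burden. In macrophage-like cells the highest were Pgk1 (2.87, from 1 UMI at low burden) and Mmp14 (2.80, 3 UMIs at low burden, 639 at high burden), and the lowest Aplnr (-3.24), a general capillary marker, and Sema3c (-3.11), which was 1080 CPM in low burden endothelial-like cells. In AT1-like cells Ldha (1.83) was highest and Ptprb (-3.26), an endothelial gate marker, lowest. Over all cells, Egln3 (4.49), an oxygen-sensing hydroxylase, and Car9 (2.36), a carbonic anhydrase, led, against Tek and Sema3c (both -3.20). Egln3 reached 30.5 CPM in metastatic-like cells against 13.8 CPM in the rest of that library, a log2 ratio of 1.15. Prkca (1.19) and Pdgfa (1.06) were also higher in metastatic-like cells, and Mmp14 (-5.09), Ptprb (-3.39) and Pdgfb (-3.28) had the lowest ratios there.

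The genes most like each member were ranked by Pearson correlation of log2(CPM + 10) over 29 class-by-library sums among 13635 genes. These points share libraries and depth, so r describes likeness only. Gsn (0.95), Dpep1 (0.95) and Mfap4 (0.95, a gate marker) were closest to Figf. Arhgef26 (0.91), Scarf1 (0.90) and Ndst1 (0.90) were closest to Vegfa, and Mageh1 (0.84), Nsg1 (0.84) and Kitl (0.82, a gate marker) to Vegfc. Col8a1 (0.88), Postn (0.86, a gate marker) and Arhgap42 (0.85) followed Pgf. Abcb1a (0.89) led for Flt4, Tmem204 (0.84) for Nrp1, Unc45b (0.84) for Kdr and Tmem2 (0.78) for Flt1. Cul7 (0.76), nearest to Vegfb, had the weakest likeness of the leading genes.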

How the data were processed

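Whole lungs of 2 mice were measured, 1 library each. The authors deposited raw UMI counts per gene and cell; the submitters' processing notes name Cell Ranger 2.0.2, mm10 with a PYMT sequence, and Seurat. The study describes aggregation of the libraries. The sources used here do not say at which step the counts were exported. The deposited low burden matrix, with 2668 cells, holds more cells than the study states after aggregation, while at high burden the numbers are equal. Cells with 1000 to 7000 genes and at most 10% mitochondrial counts were kept. A cell held a marker at 1 UMI or more and a share above its library's mean, and passed a gate with 1/2 (AT1, fibroblast, endothelial, macrophage) or 1/3 (other classes) of the markers. The highest share decided its class. These settings, the lymphatic gate (1/2 of its markers), the fibroblast split and the Pgf split were chosen after the data had been seen, and members and lists were chosen with earlier results of these data known. No doublet caller was run; cells passing more than 1 gate were counted and left out as an alternative. Counts were summed per class and given as CPM with exact Poisson intervals, shares with exact Clopper-Pearson intervals and ratios with exact conditional binomial intervals, all at 95% (Python 3.11.15, scipy 1.17.1). A gene passed the filter with 50 UMIs over both libraries in the class and a UMI in 10% of its cells in either library, and was called at 2-fold with an interval clear of 0. With 1 animal per group no test was made and no p-value is given. A count of 0 allows up to 3 counts. Pathway genes named are the called ones in endothelial-like cells and, by a rule on size, the 2 highest and 2 lowest per class (for metastatic-like cells, 3). The scripts were tested on simulated data.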

Additional observations from a re-analysis of the deposited data

Results flagged for a closer look

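Flt1 differed in opposite directions between classes. On the log2 scale, week 3 over week 1, it stood at 1.14 in fibroblast-like and 3.41 in smooth muscle or pericyte-like cells, but -2.80 in macrophage-like cells. The difference between classes was not tested, since each library is 1 animal. In cells passing a single gate the fibroblast-like value was 0.09, the smooth muscle or pericyte-like value 3.91 and the macrophage-like value -1.87.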

How the results depend on the processing

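Each count of members past 2-fold was recomputed under other settings, as were the pathway and class summaries, and 57 of 72 such values stayed within 1.5 times, 15 did not and 0 reversed. In fibroblast-like cells (2 members) the count was 1 with 1 more marker per gate, 0 with cells thinned to 2000 UMIs before gating, 0 without cells passing more than 1 gate, and 1 under the PYMT and Ccnd1 definition, with mean per-cell CPM and without the cell with the most UMIs of the gene. In macrophage-like cells (2 members) it was 1 after thinning. In AT1-like cells (1 member) it was 0 without cells passing more than 1 gate and 4 with no filter on low counts. In endothelial-like cells (0 members) it was 2 without cells passing more than 1 gate (Pgf and Figf), 1 with no filter and 1, Vegfc, without the cell with the most UMIs. The pathway list genes called in endothelial-like cells (14) fell to 7 after thinning and 6 under the PYMT and Ccnd1 definition. Members higher in metastatic-like cells (0) became 1 with mean per-cell CPM. The causes were not tested. Of 360 values of single members, 58 moved and 0 were counted as reversed. Signs of small log2 ratios did change, as for Figf in endothelial-like cells above. Vegfa in metastatic-like cells against the rest went from 0.25 to -0.23 under the PYMT and Ccnd1 definition. No paired analysis was possible because each group holds 1 library. Low depth limits Pgf, Vegfb and Flt4 in small classes, where single cells carry much of the count.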
